A study of Mus musculus with 4 samples.

Results

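The subject is the loss of Ccl5 in mice that already lacked miR-146a, read from the immune cells of the liver by single-cell RNA sequencing. The members were chosen by label: 2 of the 4 libraries, the DEN-CDHFD–treated miR-146a-/- Ccl5-/- library (DKO) and the DEN-CDHFD–treated miR-146a-/- library. Cells with 600 to 6000 genes and at most 5% mitochondrial UMIs were kept, and each was placed by the UMIs of 5 lineage genes: Cd3e, Cd79a, Ncr1, Csf1r and Flt3. A cell with at least 1 UMI of 1 gate gene and none of the other 4 entered that class, which took 6072 of 7824 miR-146a-/- cells (77.6%) and 7378 of 9850 DKO cells (74.9%). The question was which log2 ratios of DKO over miR-146a-/- were shared by all 5 classes and which belonged to 1.

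The mice were female C57BL/6. In the DKO, miR-146a-/- and WT DEN-CDHFD groups they received diethylnitrosamine (DEN, 25 mg/kg) on day 14, were moved at weaning on day 21 to a choline-deficient high-fat diet (CDHFD), and were 36 weeks old by the labels, while the study's text gives a slightly lower age. DKO and miR-146a-/- mice thus shared the germline miR-146a deletion, the carcinogen and the diet, and differed by label in Ccl5 alone. Untreated WT mice of about 8 weeks had neither agent. The treated and young WT libraries give levels beside the comparison and enter no ratio. Each group was 1 library, how many mice went into a library is not given in the sources used here, and no test across mice could be made.

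Ccl5 (RANTES) is a chemokine that T and NK cells store and release. miR-146a restrains NF-kB signaling through targets such as Irak1 and Traf6. Protein was not measured here, and no row of the count tables stands for miR-146a.

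The mature microRNA missing from both libraries is shown because its locus lies on the same chromosome as Ccl5, 40.2 Mb away. It is taken from RefSeq (GRCm38.p6, chr11:43374435-43374456, minus strand), with the seed, bases 2 to 8, in capitals.
mmu-miR-146a-5p: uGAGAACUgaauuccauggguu

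The kept cells had a median of 7910 UMIs in the miR-146a-/- library and 7558 in the DKO library, against 8210 in treated WT and 6782 in young WT. A total of 120 cell barcodes occurred in both the miR-146a-/- and the DKO files (1.43% and 1.13% of their cells), and the other pairs of libraries shared 109 to 150. The classes held 3428 and 3116 Cd3e cells, 404 and 616 Cd79a cells, 933 and 1442 Ncr1 cells, 1101 and 1991 Csf1r cells, and 206 and 213 Flt3 cells, miR-146a-/- first.

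Each gate was checked against markers of its lineage. The 8 T cell markers were all detected in Cd3e cells and summed to 5456 CPM (UMIs of a gene scaled to a class total of 1000000) in miR-146a-/- and 5205 in DKO, against 37.3 and 41.2 in Cd79a cells. The 6 B cell markers summed to 5341 and 4437 CPM in Cd79a cells, and the 6 monocyte and macrophage markers to 11705 and 11566 in Csf1r cells. The 6 markers of NK cells and ILC1 summed to 5455 and 5739 CPM in Ncr1 cells, but also to 4019.9 and 3577 in Cd3e cells. Of these sums Nkg7 alone gave 3292 and 3471 CPM in Ncr1 cells and 3572 and 3120 in Cd3e cells. Dendritic markers (6) summed to 2007 and 1703 CPM in Flt3 cells. Neutrophil genes (12) reached 11076 CPM in the Csf1r cells of miR-146a-/- and 8495 in those of DKO, with S100a9 the most abundant, so this class held more than monocytes and macrophages. Their part in the results on Csf1r cells was not tested.

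Ccl5 came first. In Cd3e cells it stood at 6258 CPM in young WT, 22689 in treated WT, 24947 in miR-146a-/- and 137 in DKO. The log2 ratio of DKO over miR-146a-/- was −7.51 (95% interval −7.56 to −7.46), a 182-fold difference. Here and below, intervals cover counting error alone and not differences between mice. Ncr1 cells gave 16416, 11403, 16144 and 84.7 CPM in the same order of libraries, which is kept from here on, and a ratio of −7.57 (−7.66 to −7.49). The deletion was thus plain in the 2 classes with the highest Ccl5.

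The transcript was far below the miR-146a-/- level in DKO without reaching 0. Of the 3215 Ccl5 UMIs in DKO Cd3e cells, 483 came from 1 cell (15.0%). Without the top cell of each library the DKO level was 117 CPM and the ratio −7.74. A Ccl5 UMI was found in 43.9% of DKO Cd3e cells and 42.9% of DKO Ncr1 cells, against 9.74% of DKO Cd79a cells, a class that makes little Ccl5. The median depths of these 3 classes were 6301.5, 7840 and 6244 UMIs. Every cell was also thinned to 2000 UMIs, which left out 358 miR-146a-/- and 406 DKO cells below that depth. Thinned cells were gated anew, here and below, so thinned classes did not hold the same cells. The shares with a Ccl5 UMI then fell to 19.5%, 14.9% and 3.74%. In the miR-146a-/- library they were 92.6%, 99.7% and 17.1% before thinning and 91.0%, 98.4% and 7.22% after it. At this equal depth DKO Csf1r cells stood at 3.34%, so the remaining Ccl5 was found more often in Cd3e and Ncr1 cells than in Cd79a or Csf1r cells. DKO Cd3e cells whose barcode also occurred in another library held 105 of the 3215 UMIs. The origin of the remaining UMIs was not tested.

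In the myeloid classes the fall in Ccl5 was smaller. Csf1r cells had 284, 328, 166 and 25.4 CPM (−2.71, −2.85 to −2.57), and Flt3 cells had 306, 1765, 291 and 15.2 CPM (−4.25, −4.68 to −3.87). Single cells carried much of the miR-146a-/- level: 675 of 2128 Ccl5 UMIs in Csf1r cells (31.7%) and 262 of 1051 in Flt3 cells (24.9%). Without them the ratios were −2.19 and −3.89. Thinning moved the Csf1r ratio the other way, to −5.64. Cd79a cells stayed below the level needed for a ratio to be counted, at 79.6, 103, 25.9 and 13.4 CPM, 90 against 72 UMIs. Ccl5 therefore did not meet the rule for a gene shared by all 5 classes, although it was lower in DKO in each of them.

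**Figure D1:**
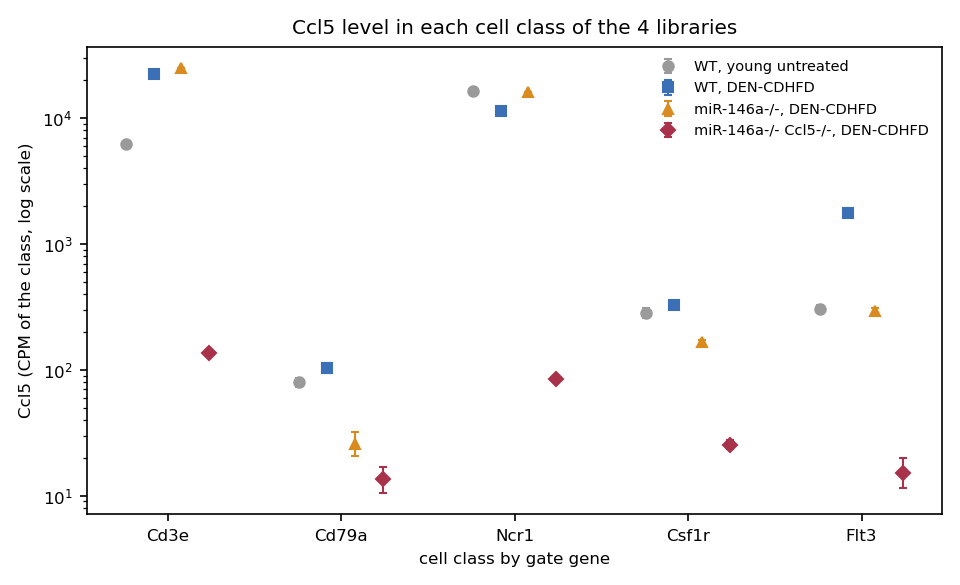
Ccl5 level in CPM (vertical axis, log scale) in each of the 5 gated classes (horizontal axis), 1 point per library with its 95% counting interval. DKO points lie lowest in every class, and the gap is widest in Cd3e and Ncr1 cells.

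The DKO library held relatively fewer T cells. Cd3e cells made up 43.8% (42.7 to 44.9) of kept miR-146a-/- cells and 31.6% (30.7 to 32.6) of kept DKO cells, a difference of −12.2 points (−13.6 to −10.7). Csf1r cells rose from 14.1% to 20.2% (6.14 points, 5.03 to 7.24) and Ncr1 cells from 11.9% to 14.6% (2.71 points, 1.71 to 3.71). Cd79a cells went from 5.16% to 6.25% (1.09 points, 0.401 to 1.77). In treated WT the Cd3e, Csf1r and Ncr1 shares were 37.4%, 6.20% and 16.4%, and in young WT 46.3%, 1.65% and 15.4%. The Csf1r share was therefore lowest in young WT and highest in DKO, while the Cd3e share of DKO was the lowest of the 4.

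After thinning, the differences were −13.0 points for Cd3e, 5.87 for Csf1r, 2.72 for Ncr1 and 0.863 for Cd79a. Flt3 cells were the exception: 2.63% and 2.16% of cells unthinned (−0.470 points, −0.935 to −0.0185), but 0.256 points higher in DKO after thinning (−0.145 to 0.649). Shares add to a whole, so a fall in T cells and a gain in myeloid cells cannot be told apart. Cells with more than 1 gate gene made up 18.6% and 20.3%, and cells with none 3.83% and 4.78%.

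**Figure D2:**
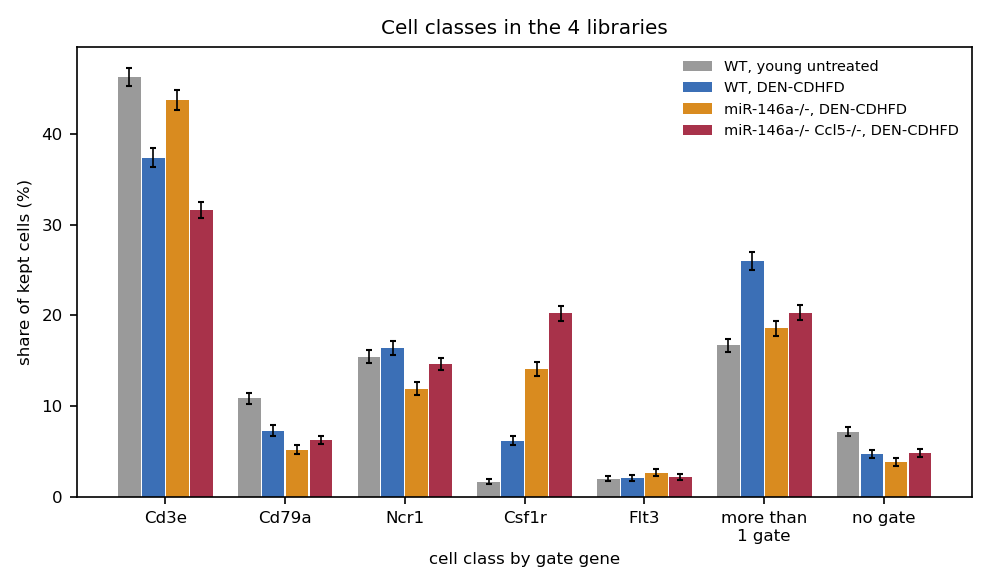
Share of kept cells (vertical axis, percent) in each gated class (horizontal axis), with 1 bar per library and 95% counting intervals. DKO has the lowest Cd3e share and the highest Csf1r share of the 4 libraries.

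Within Cd3e cells, further gates on single genes showed little movement. Cells with a Cd8a or Cd8b1 UMI and none of Cd4 were 67.6% in miR-146a-/- and 66.9% in DKO (−0.707 points unthinned and −1.05 thinned, both intervals spanning 0). Cells with a Cd4 UMI and none of Cd8a or Cd8b1 were 18.4% and 15.0% (−3.42 points, −5.22 to −1.61), and −2.51 points thinned (−3.96 to −1.05). The same gate caught 0.495% and 0.487% of Cd79a cells. Foxp3 cells were 8.28% and 8.54%. The median depth of the Cd3e cells was 6900.5 UMIs in miR-146a-/- and 6301.5 in DKO, and that of the Cd79a cells 6846 and 6244.

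Csf1r cells changed more in their make-up. Cells with a Ly6c2 UMI fell from 39.8% to 29.1% (−10.7 points, −14.2 to −7.15), cells with an Fcgr4 UMI rose from 60.3% to 72.6% (12.3 points, 8.79 to 15.8), and cells with a C1qa UMI from 9.26% to 16.5% (7.21 points, 4.78 to 9.52). Thinned, the differences were −7.26, 14.3 and 4.52 points. In Cd79a cells, which should lack Fcgr4 and C1qa, the shares were 1.24% and 2.44% for Fcgr4 and 0.248% and 1.30% for C1qa. For Ly6c2 they were 9.90% and 13.6%, and these cells are no background for it, since they had 147 and 422 CPM of Ly6c2 themselves. Median depth was 9606 UMIs in miR-146a-/- Csf1r cells and 8131 in DKO ones. In Flt3 cells the Siglech share went from 57.3% to 46.5% and the Ccr7 share from 12.6% to 21.1%, and both thinned differences (−4.55 and −1.52 points) spanned 0.

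Next, the 2 libraries were compared gene by gene. A gene was counted in a class if it reached 50 CPM and 20 UMIs in either library, and mitochondrial, ribosomal protein and receptor segment genes were left out. Few genes moved 2-fold. In Cd3e cells 8 of 3323 were higher in DKO (0.241% of the genes) and 5 lower (0.15%). Ncr1 cells gave 4 of 3477 higher (0.115%) and 2 lower (0.0575%), Csf1r cells 17 of 3178 higher (0.535%) and 2 lower (0.0629%), and Flt3 cells 19 of 3365 higher (0.565%) and 6 lower (0.178%). Cd79a cells stood apart, with 37 of 2960 higher (1.25%) and 20 lower (0.676%). Their median gene was also shifted, by −0.19, where the medians of the other classes lay between −0.03 and 0.01.

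**Figure D3:**
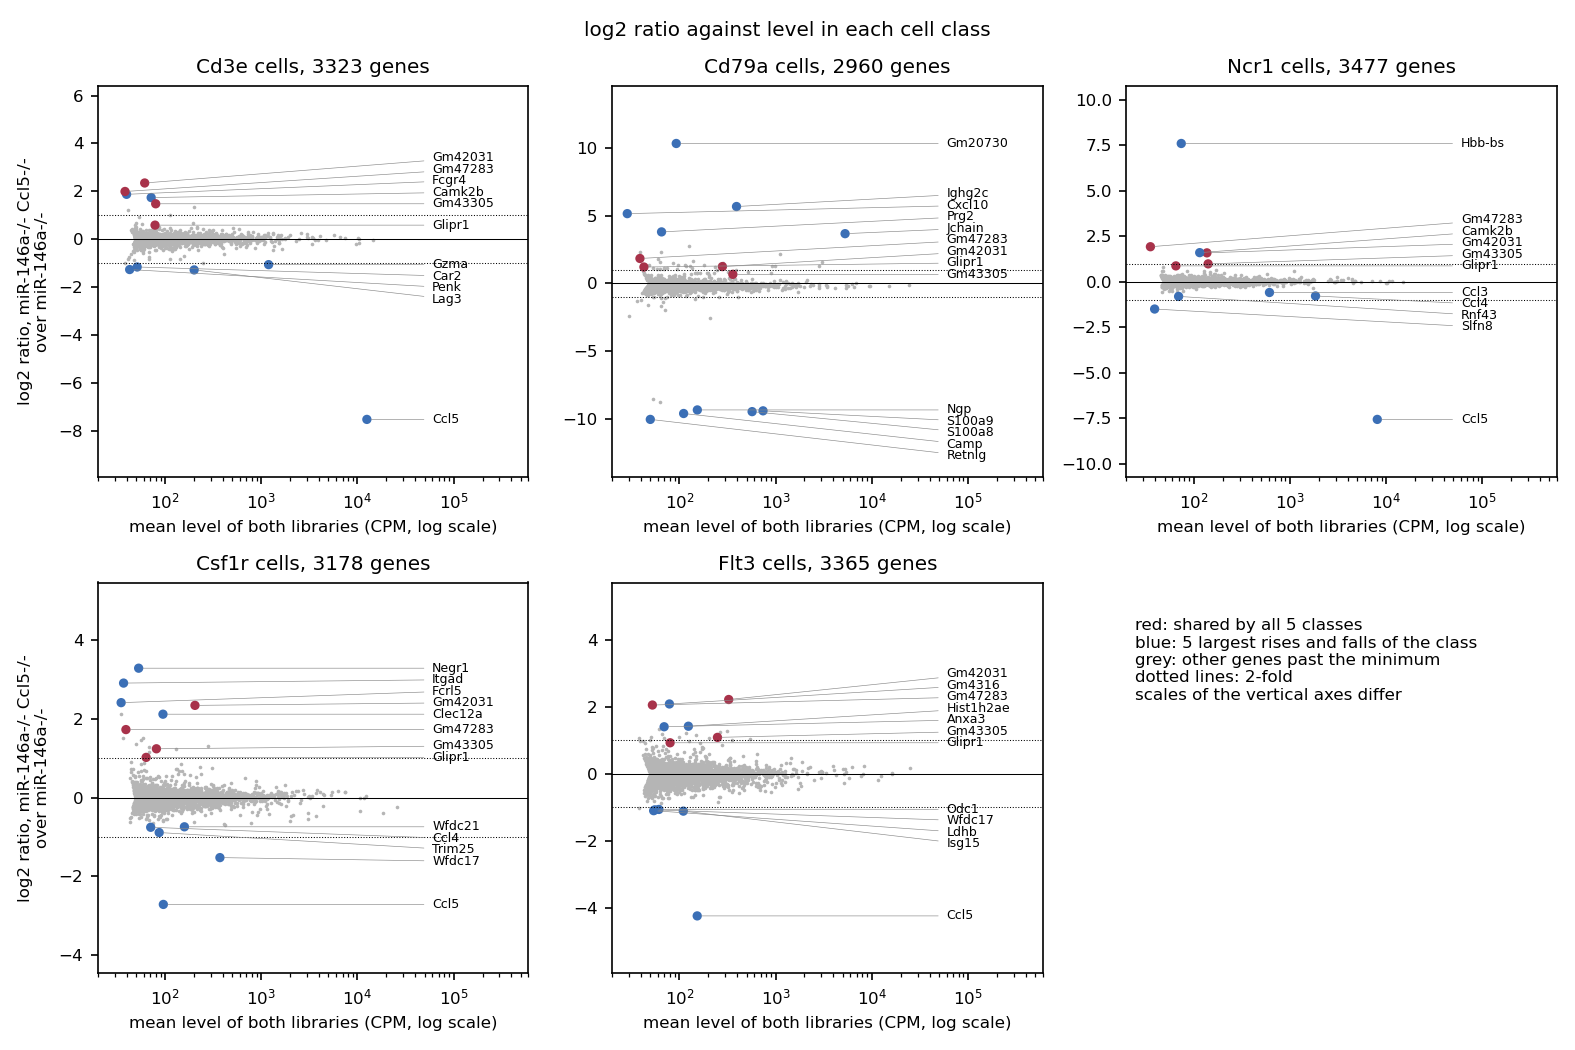
Log2 ratio of DKO over miR-146a-/- (vertical axis) against mean level in CPM (horizontal axis, log scale), 1 panel per class and 1 point per gene past the minimum. Scales of the vertical axes differ, and most genes lie near 0 in every class.

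Few changes were shared by all classes. Of the 1925 genes past the minimum in all 5 classes, 4 were higher in DKO by a log2 ratio of at least 0.58 (1.5-fold) in each class (0.208%), and 0 were lower in each (0). Class by class, a ratio of that size was found for 14 genes higher (0.421%) and 17 lower (0.512%) in Cd3e cells, 66 (2.23%) and 92 (3.11%) in Cd79a, 12 (0.345%) and 6 (0.173%) in Ncr1, 37 (1.16%) and 14 (0.441%) in Csf1r, and 50 (1.49%) and 45 (1.34%) in Flt3 cells. By the rule for 1 class, 32 of 3019 genes (1.06%) moved 2-fold in 1 class while staying within 0.5 in each other class where they could be read, with at least 2 such classes. The 2 rules differ in their thresholds, so their counts cannot be set against each other. The 32 became 57 after thinning, 16 with the mean of each cell's CPM, 18 without the 8% of cells with the most UMIs, 15 without the neutrophil-like and Jchain-high Cd79a cells described below, and 96 at a minimum of 10 CPM and 10 UMIs. Of the 32, 23 belonged to Cd79a cells, 4 to Flt3 cells, 3 to Csf1r cells, 2 to Cd3e cells and 0 to Ncr1 cells.

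The 4 shared genes were Gm42031, Gm43305, Gm47283 and Glipr1. Gm42031, a long intergenic noncoding RNA on chromosome 8, had the largest ratio of the 4 in Cd3e, Csf1r and Flt3 cells. In Cd79a and Ncr1 cells Gm47283 had the largest. Gm42031 stood in DKO at 103 CPM in Cd3e, 393 in Cd79a, 206 in Ncr1, 342 in Csf1r and 537 in Flt3 cells. Its levels in miR-146a-/- were 20.1, 167, 68.6, 67.4 and 115 CPM, with log2 ratios of 2.35, 1.24, 1.59, 2.34 and 2.22. Neither WT library reached the DKO level: treated WT had 23.7 to 139 CPM and young WT 17.5 to 141. Gm42031 was thus high in DKO and low in the other 3 libraries.

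Gm43305, a noncoding transcript on chromosome 14, was likewise highest in DKO in each class. It went from 42.0 to 118 CPM in Cd3e cells (1.49), from 279 to 441 in Cd79a (0.66), from 95.1 to 188 in Ncr1 (0.98), from 48.3 to 114 in Csf1r (1.24) and from 159 to 338 in Flt3 cells (1.09). Treated WT lay between the 2 in Cd3e, Ncr1, Csf1r and Flt3 cells, at 72.7, 151, 72.8 and 189 CPM.

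For the other 2 shared genes the miR-146a-/- library was the one that stood out. Gm47283 lies at the end of the annotated Y chromosome, in sequence that X and Y share, so its reads cannot be assigned to either. It had 15.3 CPM in miR-146a-/- Cd3e cells against 49.6 in young WT, 66.0 in treated WT and 61.3 in DKO (1.998). Ratios in Cd79a, Ncr1, Csf1r and Flt3 cells were 1.83, 1.92, 1.73 and 2.06. Glipr1, on chromosome 10, was also lowest in miR-146a-/- in every class: 75.9, 107, 62.6 and 94.6 CPM in Cd3e cells (0.59) and 98.1, 145, 41.9 and 85.1 in Csf1r cells (1.02). In Ncr1 and Flt3 cells its ratios were 0.87 and 0.93. Without the Cd3e cells that held a Lyz2, Adgre1 or C1qa UMI, the Cd3e ratio was 0.56, below the 0.58 needed for a shared gene. In Cd79a cells the ratio was 1.20, and 0.69 without the neutrophil-like and Jchain-high cells described below. Glipr1 overlaps Krr1 on the other strand, and sharing of reads between them was not tested.

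**Figure D4:**
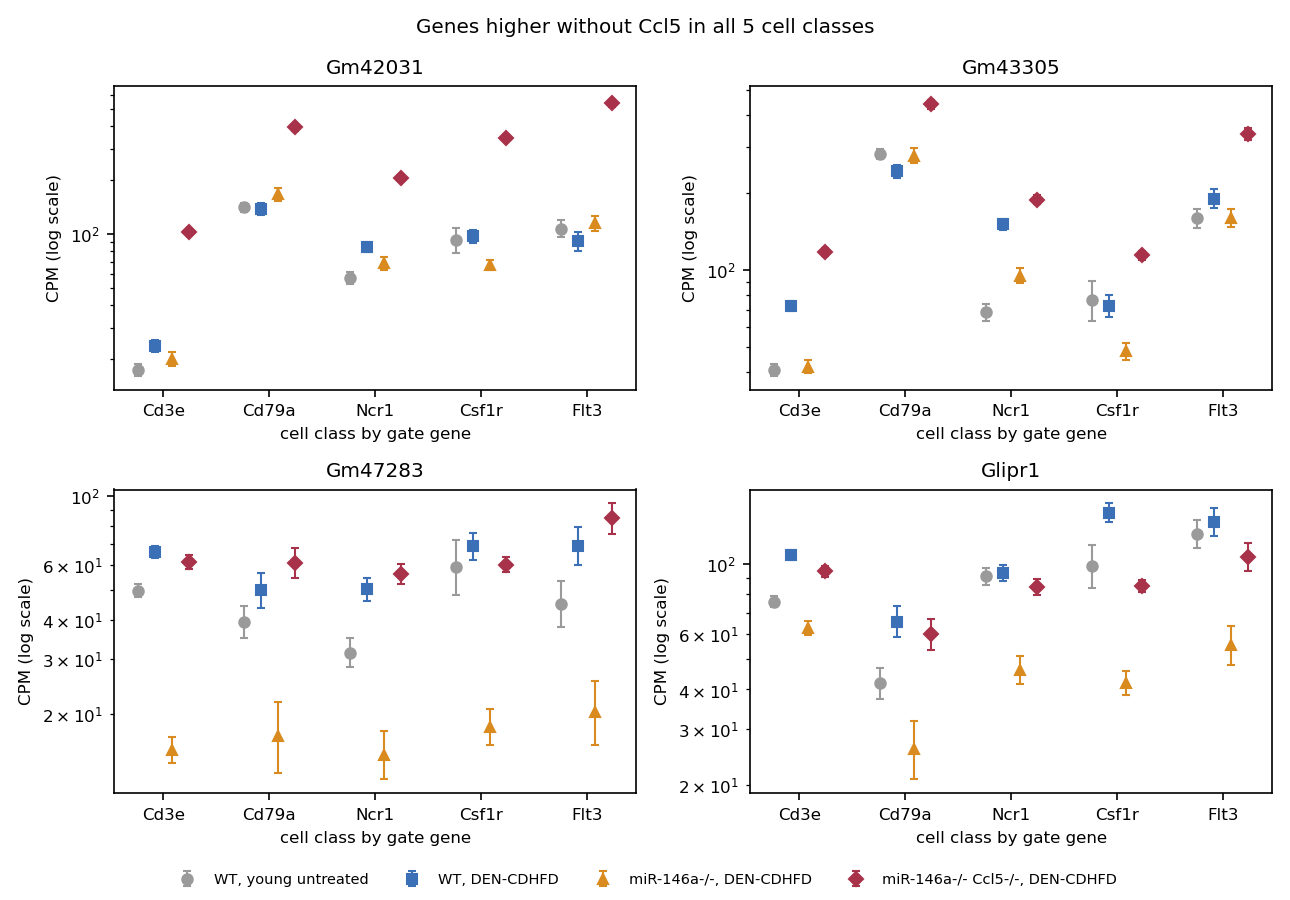
Levels in CPM (vertical axes, log scale) of the 4 genes higher in DKO in all 5 classes, by class (horizontal axis) and library. Gm42031 and Gm43305 are highest in DKO, and Gm47283 and Glipr1 are lowest in miR-146a-/-.

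Camk2b, which encodes a subunit of calcium/calmodulin-dependent kinase II, rose in the 4 classes where it could be read. It had 52.5, 44.0, 32.9 and 110.4 CPM in Cd3e cells (1.74), 74.9, 118, 100.3 and 259.6 in Cd79a cells (1.37), 59.7, 84.8, 57.3 and 174 in Ncr1 cells (1.60), and 61.1, 63.6, 62.4 and 134 in Flt3 cells (1.10). The DKO level was the highest of the 4 libraries in each. Camk2b lies on chromosome 11, 77.5 Mb from Ccl5 on the far side of the miR-146a locus. Ccl5 was the other gene that moved the same way in 4 of 4 classes, and Slfn8 fell in 3 of 3.

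Lowering the minimum to 10 CPM and 10 UMIs raised the shared genes to 10 of 6320. Ccl5 and Dhx40 were the 2 lower ones. The strongest addition was AA465934, a noncoding transcript 0.24 Mb from the Ccl5 start that overlaps Snord7 on its own strand. It was nearly absent from miR-146a-/- cells (0.913, 0.862, 0.821, 0.625 and 0.831 CPM in Cd3e, Cd79a, Ncr1, Csf1r and Flt3) and stood at 37.6, 27.1, 37.1, 15.8 and 29.8 CPM in DKO. Both WT libraries were as low, at 0.267 to 1.83 CPM in young WT and 0.346 to 1.27 in treated WT. The log2 ratios were 5.34, 4.76, 5.40, 4.57 and 4.95. Dhx40, 3.28 Mb from Ccl5, went from 31.6 to 18.2 CPM in Cd3e cells (−0.79), from 30.6 to 17.4 in Ncr1 cells (−0.81) and from 47.8 to 11.7 in Csf1r cells (−2.02).

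These positions led to the genes around Ccl5 on chromosome 11. Within 5 Mb of its start, Ccl5 itself left aside, a log2 ratio of at least 0.58 either way was found for 2 of 27 genes in Cd3e cells (7.41%), 4 of 20 in Cd79a (20%), 4 of 27 in Ncr1 (14.8%), 5 of 24 in Csf1r (20.8%) and 4 of 25 in Flt3 cells (16%). On the other chromosomes the shares were 0.859%, 5.25%, 0.378%, 1.48% and 2.71%. From 5 to 20 Mb away they were 0.962%, 5.68%, 0%, 2.04% and 1.85%. In each class the share near Ccl5 was therefore above that of the rest of the genome, on 20 to 27 genes.

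Outside Cd79a cells each gene of this window past 0.58 and past the minimum of 50 CPM and 20 UMIs was lower in DKO. Genes that reached the lower minimum alone went both ways, with AA465934 higher and Dhx40 lower in each class. Of the 40 genes within 5 Mb that could be read in a class, 12 passed 0.58, and 11 of the 12 were lower wherever they did, with Tex14 the exception (0.79 in Cd79a cells). Cd79a cells did not share this direction once their median shift was taken off: Mrps23 (−0.68) was then lower past 0.58, Tex14 (0.98) and Ift20 (0.61) higher, and Cltc (−0.54) and Mir142hg (−0.43) within it, 3 of 20 genes (15%) against 4.51% on the other chromosomes. Slfn8, 0.51 Mb away, had 67.2, 50.4, 58.04 and 20.5 CPM in Ncr1 cells (−1.50, −1.73 to −1.28) and 35.3, 27.7, 51.0 and 24.9 in Flt3 cells (−1.03, or −0.93 without its top cells). Wfdc17, 0.17 Mb away, had 429, 523, 551 and 192 CPM in Csf1r cells (−1.52, −1.58 to −1.47) and 22.1, 59.5, 75.4 and 35.6 in Flt3 cells (−1.08). Ccl6, at 0.06 Mb the nearest of those past 0.58, had a ratio of −0.68 in Csf1r cells.

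The neighbors Ccl3 and Ccl4 also encode chemokines. Ccl4, at 0.13 Mb, had 3696, 3041, 2341 and 1358 CPM in Ncr1 cells (−0.79) and 153, 367, 88.9 and 52.8 in Csf1r cells (−0.75). Its ratio was −0.69 in Flt3 cells and −0.44 in Cd3e cells. Ccl3, at 0.12 Mb, had 1175, 903, 739 and 489 CPM in Ncr1 cells (−0.59) and a ratio of −0.60 in Cd3e cells.

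Not every neighbor moved. Slfn2, 0.47 Mb away, had ratios of 0.21 in Cd3e, −0.23 in Cd79a, 0.22 in Ncr1, 0.00 in Csf1r and −0.13 in Flt3 cells. The median ratio of the genes within 1 Mb was −0.06 in Cd3e, −0.09 in Cd79a, −0.21 in Ncr1, −0.40 in Csf1r and −0.54 in Flt3 cells, over 9, 4, 8, 12 and 8 genes. In Cd79a cells this lay above the class median of −0.19. Around the miR-146a locus, deleted in both libraries, 0 of 9, 1 of 8, 0 of 8, 0 of 4 and 1 of 7 genes within 5 Mb passed 0.58. With the class median taken off, the Cd79a count was 0 of 8. Loss of Ccl5 and the chromosomal segment inherited with the deleted allele cannot be told apart in these ratios.

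**Figure D5:**
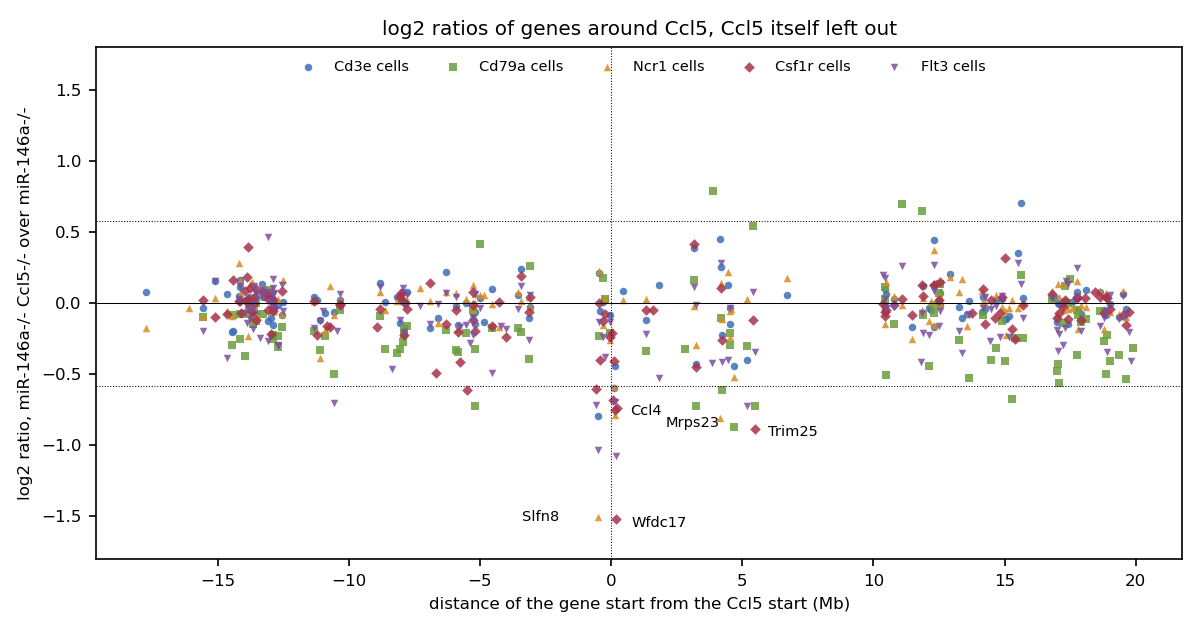
Log2 ratio of DKO over miR-146a-/- (vertical axis) against distance from the Ccl5 start in Mb (horizontal axis) for genes on chromosome 11, colored by class. Most neighbors that moved past 0.58 lie below 0.

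In Cd3e cells, Lag3 and granzyme A stood out among the falls. Lag3, an inhibitory receptor, had 27.2 CPM in young WT, 289.9 in treated WT, 284 in miR-146a-/- and 117 in DKO (−1.27, −1.34 to −1.21). It did not fall in Ncr1 cells (−0.11) or Flt3 cells (0.01), and it was the sole gene lower in Cd3e cells by the rule for 1 class. Gzma had 131, 937, 1609 and 776 CPM (−1.05, −1.08 to −1.03), against −0.01 in Ncr1 cells. Penk, the precursor of enkephalins, had 7.24, 51.9, 60.4 and 25.3 CPM (−1.26), and carbonic anhydrase Car2 had 6.17, 22.3, 70.7 and 31.8 CPM (−1.15) but 186, 293, 252 and 292 in Ncr1 cells (0.22). All 4 were low in young WT, so in DKO they lay between the young and the miR-146a-/- level.

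On the list of inhibitory receptors, Lag3 was the 1 gene past 0.58, against 0.512% of all genes lower by that much. Of the 8 genes readable in Cd3e cells, Lag3 included, 7 had ratios below 0 and 1 above, with a median of −0.24 against 0.01 for all genes of the class. Cd244a stood at −0.55, Havcr2 at −0.47, Pdcd1 at −0.27 and Ctla4 at 0.10. In Ncr1 cells the median of 7 genes was 0.09. Cytotoxic genes had a median of −0.12 over 10 genes in Cd3e cells, with Prf1 going from 195 to 119 CPM (−0.71) and Gzmb from 801 to 727 (−0.14), and 0.05 in Ncr1 cells. Among markers of age-associated CD8 T cells, 7 of 8 were not above their miR-146a-/- level, in a class with a median ratio of 0.01. Lag3 led them, and the next, Cd7 (−0.37) and Pdcd1, did not pass 0.58. Gzmk, counted among the 7, was unmoved at 665 and 656 CPM (−0.02).

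Cell cycle genes went the other way. All 14 readable in Cd3e cells were higher in DKO, with a median of 0.37, from Mcm6 (0.09) to Ccna2 (0.49). The median over all genes of the class was 0.01. Mki67 had 78.4, 135, 98.9 and 129.9 CPM (0.39), so the DKO level was near that of treated WT. In Flt3 cells 7 of 8 were higher (median 0.38, against −0.03 for the class), and in Ncr1 cells 6 of 8 (median 0.10, against 0.005). None of these genes passed 0.58 in Cd3e cells.

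Among the rises of Cd3e cells, Fcgr4, an activating Fc receptor of myeloid cells, had 0.658, 2.93, 17.0 and 62.5 CPM (1.88, 1.73 to 2.03). Ifitm2 had 26.6, 42.2, 25.0 and 58.02 CPM (1.21). Fcer1g (1.34) and Tyrobp (1.01), chosen after their values were seen, rose as well, with Tyrobp at 0.99 without its top cells. In miR-146a-/- and DKO Cd3e cells the 6 monocyte and macrophage markers summed to 790.9 and 749.6 CPM, of which Ly6c2, also a T cell gene, gave 694 and 645. The 3 C1q genes summed to 69.1 and 108 CPM, and the 7 mast cell and basophil genes to 0.511 and 13.8. The part of such cells in the rises was not tested. A UMI of Lyz2, Adgre1 or C1qa was present in 631 of 3428 miR-146a-/- Cd3e cells (18.4%) and 699 of 3116 DKO ones (22.4%). Most Fcgr4 UMIs of both libraries sat in them: 83 of 465 and 235 of 1466 were left without them. On what was left the ratios were 1.79 for Fcgr4 and 1.41 for Ifitm2, both on levels below the minimum, 1.20 for Fcer1g and 1.11 for Tyrobp. All 5 falls remained, Lag3 at −1.35 and Gzma at −1.13.

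Ncr1 cells changed least. Apart from Ccl5, the fall past 2-fold was Slfn8, and the next largest were Rnf43 at 45.5, 57.3, 88.8 and 50.6 CPM (−0.81), Ccl4 and Ccl3. Rnf43 lies 4.13 Mb from Ccl5 and went up in Cd3e cells (0.45). Hemoglobin Hbb-bs headed the rises at 179, 0.594, 0.704 and 148 CPM (7.60), but 99.2% of its DKO UMIs came from 1 cell, without which the ratio was 1.17. Gm47283, Camk2b and Gm42031 made up the other 2-fold rises. NK and ILC1 markers had a median of 0.08, and cells with an Eomes or an Itga1 UMI kept their shares (45.4% and 43.3%, 41.4% and 44.7%).

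Csf1r cells of DKO carried a group of genes rare in the other libraries. Negr1, a cell adhesion molecule, had 15.8, 3.02, 9.85 and 96.3 CPM (3.28), Itgad, integrin alpha D, 1.22, 1.25, 8.68 and 65.3 CPM (2.91), and Fcrl5 1.83, 0.890, 11.02 and 58.8 CPM (2.41). By the rule for 1 class, the 3 genes that rose here were Grap2 (45.7, 38.6, 30.02 and 86.5 CPM, 1.53), Ccnd2 (49.4, 37.9, 29.6 and 82.2 CPM, 1.47) and Cd72 (42.1, 57.3, 42.1 and 93.2 CPM, 1.15). Fcgr4 had 92.0, 68.7, 159 and 398 CPM (1.32).

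Much of the level of these genes sat in 1 set of cells. A Negr1 UMI was present in 28 of 1101 miR-146a-/- Csf1r cells (2.54%) and 371 of 1991 DKO ones (18.6%), against 13 of 516 in treated WT (2.52%) and 8 of 170 in young WT (4.71%). The difference between DKO and miR-146a-/- was 16.1 points (14.1 to 18.0), and 8.62 points thinned. In Cd79a cells the shares were 0.495% and 1.79%. The cells with Negr1 had median depths of 7204.5 and 5608 UMIs in miR-146a-/- and DKO. In DKO, cells with and without Negr1 had 381 and 18.0 CPM of Itgad, 1566 and 222 of Fcgr4, 702 and 108 of C1qa, 111 and 354 of Ly6c2, and 3032 and 11645 of Lyz2. The cells with Negr1 thus had more Itgad, Fcgr4 and C1qa and less Ly6c2 and Lyz2 than the rest of the class.

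Leaving out the cells with Negr1, a choice made after the values were seen, took the 17 higher genes to 6 and kept both lower ones. Grap2 then stood at 0.54, Ccnd2 at 0.60, Cd72 at 0.23 and Fcgr4 at 0.61. Itgad (2.48) and Fcrl5 (1.4998) kept ratios past 1 on levels below the minimum. Gm42031 did not depend on these cells, with 277 CPM in DKO cells with Negr1 and 351 in those without. Clec12a, an inhibitory lectin receptor, was at 2.14 without them and 2.12 with them. It had 187, 175, 35.6 and 155 CPM in Csf1r cells and 227, 151, 84.0 and 167 in Flt3 cells (0.99), so the miR-146a-/- library was the low one.

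Other changes in Csf1r cells were modest. After Ccl5 and Wfdc17 the largest falls were Trim25, 5.47 Mb from Ccl5, with 112, 154, 113 and 61.0 CPM (−0.89), Ccl4, and Wfdc21, 0.22 Mb away, with 12.8, 1.96, 199 and 119 CPM (−0.74). C1qa, C1qb and C1qc rose together at 0.67, 0.76 and 0.85, the single list of 3 or more readable genes outside Cd79a cells with a median at least 0.5 from that of its class. C1qa went from 116 to 185 CPM, with 269 in treated WT. In the cells without Negr1 it went from 82.2 to 108 CPM, a rise that did not pass 0.58. In those with Negr1 it fell, from 1721 CPM in 28 miR-146a-/- cells to 702 in DKO. The 9 readable classical monocyte genes had ratios below 0, with a median of −0.28. Of the 9, 1 was lower past 0.58, against 0.441% of all genes: Ly6c2 (518 to 322 CPM, −0.68), followed by Chil3 (698 to 510.0 CPM, −0.45). In the cells without Negr1, Ly6c2 went from 523 to 354 CPM, a fall that did not pass 0.58. The patrolling monocyte list, which holds Fcgr4, had a median of −0.06, with 3 of 12 ratios above 0 and 9 below.

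Of the interferon-stimulated genes, 2 of 17 were lower past 0.58 in Csf1r cells, against 0.441% of all genes there. In Flt3 cells 4 of 13 were lower, against 1.34%, and 1 was higher, against 1.49%. Ratios were below 0 for 16 of the 17 (median −0.24) and 10 of the 13 (−0.27), against medians of −0.02 in Cd3e and −0.01 in Ncr1 cells. Isg15 had 155, 165, 150.5 and 69.3 CPM in Flt3 cells (−1.12, or −0.94 without its top cells) and a ratio of −0.53 in Csf1r cells. Irf7 went from 323 to 179 CPM in Flt3 cells (−0.85). Gbp2 ran against the list in both, at 0.49 in Csf1r cells and 1.00 in Flt3 cells, where it had 18.0, 91.3, 33.3 and 66.6 CPM.

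Flt3 cells had few cells and wide counting error. Their other falls were Ldhb, a lactate dehydrogenase subunit, at 47.9, 33.2, 73.7 and 34.3 CPM (−1.10) and Odc1, of polyamine synthesis, at 71.2, 93.0, 82.9 and 39.5 CPM (−1.07). Odc1 was at −0.65 without its top cells and at 0.05 after thinning. Rises were led by Gm42031, by Gm4316, a gene model whose reads may map elsewhere, at 12.6, 43.9, 29.9 and 128 CPM (2.09), and by Gm47283, Hist1h2ae (103, 111, 67.3 and 181 CPM, 1.42) and Anxa3 (29.0, 223, 38.0 and 101 CPM, 1.41). By the rule for 1 class, the genes that rose here were Cd274, which encodes PD-L1 (40.02, 135, 40.5 and 92.0 CPM, 1.18), Serpina3g (77.8, 65.7, 32.1 and 68.5 CPM, 1.09) and S100a4 (62.1, 342, 234 and 469 CPM, 1.01). For Cd274, Anxa3 and S100a4 treated WT was high as well. All 10 readable sterol genes had ratios below 0 (median −0.32, against −0.03 for the class), and 2, Msmo1 (−0.61) and Insig1 (−0.60), passed 0.58, against 1.34% of all genes.

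Cd79a cells held the most changes, and few cells carried them. The largest falls were neutrophil genes: S100a8 at 0.534, 4.02, 1139 and 1.49 CPM (−9.49, or −9.30 relative to the class median), S100a9 at 0.668, 19.0, 1480.4 and 2.05 (−9.43), Camp at 221 and 0.187 (−9.63, −15.52 to −7.73, on 1 DKO UMI) and Ngp at 307 and 0.373 (−9.36, on 2 DKO UMIs). Retnlg had 347 UMIs in miR-146a-/- and 0 in DKO, at least 178-fold lower. At least 10 UMIs of neutrophil genes were present in 4 of 404 miR-146a-/- cells (0.990%) and 0 of 616 DKO cells.

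The rises of Cd79a cells included plasma cell genes, with 3 of the 5 readable genes of that list past 2-fold, against 1.25% of all genes. Jchain had 4427, 2196, 771 and 9799 CPM (3.67, or 3.86 relative to the class median), Ighm 2362, 1826, 1494 and 4545 (1.60), Igkc 2751, 1879.7, 1633 and 4024 (1.30) and Slpi 710.2, 567, 405 and 1806 (2.16). The miR-146a-/- library was the lowest of the 4 for each. Trp53inp1 (1.48), Fkbp2 (1.38) and Prg2 (3.80) rose too. At least 10 Jchain UMIs were found in 3 of 404 miR-146a-/- cells (0.743%), 33 of 616 DKO cells (5.36%), 19 of 606 in treated WT (3.14%) and 29 of 1118 in young WT (2.59%). Ighg2c (5.68) came to 97.9% from 1 DKO cell and stood at 0.44 without it. Gm20730, whose name escaped the filter on receptor segments, came to 99.6% from 1 DKO cell, with 994 UMIs against 0, at least 215-fold higher.

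With the neutrophil-like and Jchain-high cells left out, a choice made after the values were seen, 6 genes were 2-fold higher, all among the earlier 37, and 8 were lower, 4 of them among the earlier 20. The class median moved from −0.19 to −0.03. Cxcl10, a ligand of Cxcr3, remained: 3.21, 3.38, 1.44 and 56.0 CPM (5.15) with all cells and 5.29 without these, though from 8 DKO cells, 1 of which gave 40.7% of the UMIs. Without its top cells the ratio was 5.05, on a level below the minimum. S100a6, at 59.7, 94.3, 360.3 and 60.8 CPM (−2.56), was still lower at −1.87, and Jchain was at 0.81. Anxa1 (−2.40) and Lyz2 (−1.96) turned to 0.22 and 1.04. Ighm, Igkc and Slpi, higher in DKO with all cells, turned to −0.29, −0.16 and −1.28.

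Of the fixed gene lists, 86 pairs of list and class had at least 3 readable genes, and 3 had a median at least 0.5 from that of the class: C1q in Csf1r cells (0.76), neutrophil genes in Cd79a cells (−9.43) and plasma cell genes in Cd79a cells (1.23). No glycolysis gene passed 0.58, while ratios were below 0 for 10 of 11 in Cd3e cells (median −0.19), 10 of 10 in Ncr1 (−0.16) and 10 of 10 in Flt3 cells (−0.19), with Gapdh going from 1486 to 1236 CPM in Cd3e cells (−0.27). Immediate-early and heat shock genes, which respond to tissue handling, had medians just above 0 in Cd3e (0.15), Ncr1 (0.08), Csf1r (0.12) and Flt3 cells (0.12). Nr4a2 ran against them in Cd3e cells, at 87.3, 274, 325 and 166 CPM (−0.97), whereas Fos had 566, 407, 70.9 and 101 CPM (0.51).

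No gene of the miR-146a pathway list passed 0.58 in any class. The 6 readable in Cd3e cells had a median of −0.16, with 5 below 0, and the 6 in Flt3 cells a median of 0.15, with 5 above 0. Irak1 had 70.2 and 58.7 CPM in Cd3e cells of miR-146a-/- and DKO (−0.26), and 53.8 and 51.3 in Csf1r cells (−0.07). Relb in Flt3 cells was the largest, at 150.5 and 219 CPM (0.54), with 364 in treated WT. NF-kB genes in Flt3 cells had a median of 0.12, with 10 of 13 higher.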

How the data were processed

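CD45+ liver cells were profiled by 10x Genomics 5′ single-cell RNA sequencing in 4 libraries, and the DKO and miR-146a-/- libraries were compared. The authors deposited unnormalized UMI counts for each gene in each cell, mapped to mm10. The deposited matrix headers name Cell Ranger 7.0.1, while the study's methods name another version. The handling of intronic reads is not given.

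UMIs were summed per library and class and scaled to CPM of the class total. Log2 ratios used a prior of 0.5 counts, and a floor of 3 counts stood in for 0. The files held 103165826 UMIs for treated WT, 88706063 for miR-146a-/-, 103147246 for DKO and 90756272 for young WT. Gene positions came from GENCODE M21, to which 32158 of 32285 gene IDs (99.6%) matched. Intervals were Clopper-Pearson, Newcombe, exact Poisson and conditional binomial at 95%. Genes were named by size: Ccl5, each shared gene, the 5 largest rises and falls of a class, and up to 5 each way that moved in 1 class, with list members where a list is described. Members and lists were chosen with earlier results of these data known. The result for 1 gene is not reported. Cells with several gate genes or none were left out of the classes. No doublet caller was run: the upper gene limit and the exclusive gates stood in for it, with an alternative that left out the 8% of cells with the most UMIs.

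Alternatives changed the prior, the minimum, the scaling (TMM factors from edgeR 4.0.16 in R 4.3.3), the cell filters, the gates and the depth (2000 UMIs per cell). Thinning left out 540 treated WT, 358 miR-146a-/-, 406 DKO and 667 young WT cells. Code ran in Python 3.11.15 with numpy 2.4.6, pandas 2.3.3, scipy 1.17.1 and matplotlib 3.10.9, and was tested on simulated data.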

Additional observations from a re-analysis of the deposited data

Results flagged for a closer look

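Some values drew attention because they went against each other or lay outside the classes. Sox5 was higher in DKO in Csf1r cells (13.1 to 56.7 CPM, 2.12) and lower in Cd79a cells (97.96 to 38.1 CPM, −1.36), with 0.610 and 18.0 CPM in young WT. Without the cells with Negr1, the ratio in Csf1r cells was 0.69, and DKO Csf1r cells with and without Negr1 had 358 and 11.5 CPM of Sox5. In Cd79a cells it was −1.16 without the neutrophil-like and Jchain-high cells. Why the 2 classes differ was not tested. Tyrobp was higher in Cd3e cells (1.01) and lower in Cd79a cells (−1.08). In Cd79a cells it stood at −0.19 without the neutrophil-like and Jchain-high cells, and it reversed to 0.27 after thinning.

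Cells without a gate gene were in no class, yet S100a8 stood at 27239 CPM in those of miR-146a-/- and 7904 in those of DKO, so neutrophils were present there and were not compared. Cells with both Cd3e and Csf1r UMIs were also left out. They made up 8.32% of kept miR-146a-/- cells (7.72 to 8.95) and 7.40% of DKO cells (6.89 to 7.94), against 9.62% in treated WT and 2.40% in young WT. Whether they are doublets was not tested.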

How the results depend on the processing

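Of 768 values for named genes (72 gene and class pairs over the alternatives), 614 kept their direction and lay within the counting interval, 141 kept their direction outside it and 13 reversed, 3 of them with no UMI left in either library. Of 256 values for counts, shares and Ccl5, 203 stayed, 52 moved and 1 reversed. The cause was not tested. The 3 alternatives of the last paragraph were chosen after seeing the data, as was a further one without Cd3e cells holding Lyz2, Adgre1 or C1qa UMIs, which took the 2-fold genes of Cd3e cells from 8 higher and 5 lower to 6 and 7.

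With the mean of each cell's CPM, Ccl5 was −7.62 in Cd3e, −1.82 in Cd79a, −7.68 in Ncr1 and −4.05 in Csf1r cells. Cd79a cells had 16 higher and 13 lower genes, Flt3 cells 2 lower, and 16 genes moved in 1 class.

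Thinned to 2000 UMIs, Ccl5 was −7.61 in Cd3e, −4.16 in Cd79a, −7.70 in Ncr1 and −5.64 in Csf1r cells. The Flt3 share reversed to 0.256 points. Cd79a cells had 6 higher genes, Csf1r cells 4 lower, Flt3 cells 78 higher and 36 lower, and 57 genes moved in 1 class. Lyz2 in Cd79a (0.48) and Odc1 in Flt3 cells (0.053) reversed. So did Tyrobp in Cd79a cells (0.27), which was not among the named genes counted above.

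Without the 8% of cells with the most UMIs, Ccl5 was −7.56 in Cd3e and −3.22 in Csf1r cells. Cd79a cells had 7 higher genes, Csf1r cells 5 lower, Flt3 cells 38 higher and 16 lower, 18 genes moved in 1 class, and 7 pairs of list and class passed 0.5. In Cd79a cells Ighg2c (−1.32) and Slpi (−2.89) reversed, and Gm20730 (−0.39) had 0 UMIs in both libraries.

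At least 2 UMIs of the gate gene gave −2.54 for Ccl5 in Csf1r cells and a Csf1r share difference of 4.86 points. Over cells with 1 gate, the share differences were −14.2 for Cd3e, 4.18 for Ncr1 and 8.85 for Csf1r cells.

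With a minimum of 10 CPM and 10 UMIs, higher and lower genes were 51 and 17 in Cd3e, 80 and 97 in Cd79a, 21 and 5 in Ncr1, 50 and 5 in Csf1r, and 59 and 53 in Flt3 cells. Shared genes were 10, genes of 1 class 96, pairs of list and class 10, and gene and class pairs past 0.58 within 5 Mb of Ccl5 58. With a log2 ratio of at least 1, 2 genes were shared.

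Without the top cell of each library, Ccl5 was −7.74 in Cd3e and −2.19 in Csf1r cells. Without neutrophil-like and Jchain-high cells, Cd79a cells had 6 higher and 8 lower genes, 15 genes moved in 1 class, 1 pair of list and class passed 0.5, Gm20730 (−0.36) had 0 UMIs in both libraries, and Ighg2c (−0.25), Slpi (−1.28), Ighm (−0.29), Igkc (−0.16), Anxa1 (0.22) and Lyz2 (1.04) reversed. Without Negr1 cells, Csf1r cells had 6 higher genes, and Negr1 (−0.56) had 0 UMIs left in both by the choice of cells.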

Other observations

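Each genotype was 1 library, so differences between mice, cages, dissociations and runs cannot be told apart from the loss of Ccl5. The gates rest on single transcripts and miss cells in which the gate gene was not caught. Classes mix cell states, so a shift among states and a change within cells cannot be told apart. Cd79a and Flt3 classes held few cells. Tumor burden, histology and protein were not in these files. The sequence of the DKO mice around Ccl5 was not known.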
